A study of Mus musculus with 2 samples.

Results

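The genes examined were 33 genes of the endoplasmic reticulum (ER) quality control system, set against the peaks of 1 ATF4 CUT&Tag library. They were chosen by name from the known parts of this system, by a rule that uses no measured value, but with earlier results of these data known. They are 33 of 21887 protein-coding genes on the 21 chromosomes with peaks. The list held 15 chaperones and folding enzymes, 5 genes of the stress sensors with their factor and proteases, 11 genes of ER-associated degradation, and 2 genes of protein entry and glycosylation. In CUT&Tag an antibody brings the transposase pA-Tn5 to a DNA-bound protein in permeabilized cells, so that the DNA nearby is cut, tagged and sequenced. The cells were primary neurons from cortex and hippocampus of embryonic C57BL/6 mice, kept some days in culture, with about 100000 cells for each of 2 antibodies, ATF4 and IgG. Both libraries share strain, tissue and cell type, and no genotype or treatment is given for either, including whether hemin had been added. Only the ATF4 peaks were analysed here, from 1 library without replicates, which leaves the values with no replicate error and the list described without a test. Peaks of a transcription factor do not measure expression, so the neuronal label could not be checked against marker genes.

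Proteins that enter the ER are folded by chaperones and disulfide isomerases, and those that fail are drawn back to the cytosol and destroyed. When folding fails, the sensors PERK, IRE1 and ATF6 start the unfolded protein response. PERK acts through ATF4, a basic leucine zipper factor that pairs with C/EBP family members on composite sites, the C/EBP-ATF response elements (CARE). ATF6 and XBP1, the factor that IRE1 activates, bring up chaperone genes through the ER stress response element (ERSE), in which they act beside NF-Y. The question put to the data was which ER genes of these neurons carried an ATF4 peak, and how the peaks fell among chaperones, sensors and degradation genes.

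The library held 7873 called peaks with a median width of 207 bp. Each peak has a fold enrichment over a background that the peak caller estimates, which cannot be read as enrichment over IgG. It ranged from 2.94 to 43.8 with a median of 4.33. The fragments stacked at each summit were recovered from that fold and its p-value. They ranged from 3 to 2206 with a median of 4, and 3224 peaks (41.0%) rested on 3 fragments. Exact Poisson intervals (95%) of fragments cover counting error only. A gene without a called peak may still hold fragments below the threshold of the peak caller.

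Members with a summit just before the transcription start, and those whose promoters hold a known ER stress element, are shown first by sequence. The promoters below are those of the 4 members whose summit lay within 250 bp before the transcription start. They run from 250 bases before the start to the last base before it, in the direction of transcription, from RefSeq on GRCm38.p6: Herpud1 (chr8:94386179-94386428, plus strand), Dnajb9 (chr12:44210069-44210318, minus strand), Edem3 (chr1:151755124-151755373, plus strand) and Vcp (chr4:43000508-43000757, minus strand). Capitals mark matches to the elements searched, namely TGACGCAA, TGATGCAA and the second form of the ERSE in Herpud1, TGACGCAA in Dnajb9, and TGACGTGG in Vcp. An element on the reverse strand, such as TGATGCAA in Herpud1, appears as its reverse complement. Edem3 held none of them.
Herpud1: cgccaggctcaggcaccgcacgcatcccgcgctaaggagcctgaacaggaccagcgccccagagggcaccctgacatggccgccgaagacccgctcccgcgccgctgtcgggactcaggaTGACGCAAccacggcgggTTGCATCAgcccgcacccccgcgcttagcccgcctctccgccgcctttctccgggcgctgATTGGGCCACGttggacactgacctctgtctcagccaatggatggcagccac
Dnajb9: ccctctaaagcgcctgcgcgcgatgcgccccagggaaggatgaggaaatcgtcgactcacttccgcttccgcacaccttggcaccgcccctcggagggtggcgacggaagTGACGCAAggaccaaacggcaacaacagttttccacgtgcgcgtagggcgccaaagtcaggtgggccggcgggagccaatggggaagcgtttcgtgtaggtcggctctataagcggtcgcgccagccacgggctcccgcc
Edem3: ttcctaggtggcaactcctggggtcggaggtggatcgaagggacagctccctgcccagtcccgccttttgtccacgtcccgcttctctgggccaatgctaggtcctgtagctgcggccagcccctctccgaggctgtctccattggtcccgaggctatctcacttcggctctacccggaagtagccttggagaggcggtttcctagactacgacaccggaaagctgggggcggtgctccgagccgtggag
Vcp: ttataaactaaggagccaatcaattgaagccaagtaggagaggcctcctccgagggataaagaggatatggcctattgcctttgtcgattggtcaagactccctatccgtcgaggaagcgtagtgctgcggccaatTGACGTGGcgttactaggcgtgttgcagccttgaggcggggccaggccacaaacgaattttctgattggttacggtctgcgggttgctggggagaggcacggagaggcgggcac

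The next set is shown because these 9 members carry the ERSE, which is CCAAT and CCACG with 9 bases between them, on either strand. Each line gives the element in capitals with 20 bases on both sides, also from RefSeq on GRCm38.p6 in the direction of transcription. The stretches lie at chr2:34772005-34772063 (plus strand) for Hspa5, chr8:84847055-84847113 (minus) for Calr, chr11:50325780-50325838 (minus) for Canx, chr12:17266471-17266529 (plus) for Pdia6, chr14:118937807-118937865 (plus) for Dnajc3, chr15:88819500-88819558 (plus) for Creld2, chr19:6046512-6046570 (plus) for Syvn1, chr10:75893222-75893280 (plus) for Derl3, and chr10:86705513-86705676 (minus) for Hsp90b1, whose stretch spans 2 elements. Hsp90b1 was the only one of these 9 with a summit at a gene end, where 8.11% of other protein-coding genes had one. With 9 genes no difference from that share can be read.
Hspa5: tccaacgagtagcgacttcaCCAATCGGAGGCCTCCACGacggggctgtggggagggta
Calr: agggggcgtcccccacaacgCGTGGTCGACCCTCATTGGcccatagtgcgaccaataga
Canx: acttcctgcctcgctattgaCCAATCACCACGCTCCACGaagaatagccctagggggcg
Pdia6: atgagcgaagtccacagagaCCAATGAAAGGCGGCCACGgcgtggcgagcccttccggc
Dnajc3: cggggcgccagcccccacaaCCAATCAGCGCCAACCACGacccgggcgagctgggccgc
Creld2: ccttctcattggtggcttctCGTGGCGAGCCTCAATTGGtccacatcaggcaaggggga
Syvn1: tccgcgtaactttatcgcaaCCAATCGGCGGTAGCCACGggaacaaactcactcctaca
Derl3: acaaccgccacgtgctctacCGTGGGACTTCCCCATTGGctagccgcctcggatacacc
Hsp90b1: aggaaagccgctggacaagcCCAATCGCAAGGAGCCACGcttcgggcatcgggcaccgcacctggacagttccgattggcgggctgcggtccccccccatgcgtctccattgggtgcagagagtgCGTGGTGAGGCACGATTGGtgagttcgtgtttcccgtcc

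ATF4 peaks stood at the ends of a minority of the ER genes, and the strongest by far was at a degradation gene. At most 1 kb from either gene end, a summit was found in 8 of the 33 members (24.2%), against 1772 of the 21854 other protein-coding genes (8.11%). These 8 were Herpud1, Edem3 and Vcp of the degradation group, Dnajb9, P4hb, Hsp90b1 and Pdia3 of the folding group, and Sec61b. By group this was 4 of 15 folding genes, 3 of 11 degradation genes, 1 of 2 genes of entry and glycosylation, and 0 of 5 sensor genes. When peaks had to reach a -log10 q of 5, 6 of these members remained (18.2%), against 2.71% of the other genes. Hsp90b1 and Pdia3 were the members lost at that threshold, so 2 of 15 folding genes were left against 3 of 11 degradation genes. With all peaks these groups had 26.7% and 27.3%, and Hsp90b1 fell just short with a -log10 q of 4.73. These groups are too small to read a difference from.

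**Figure D1:**
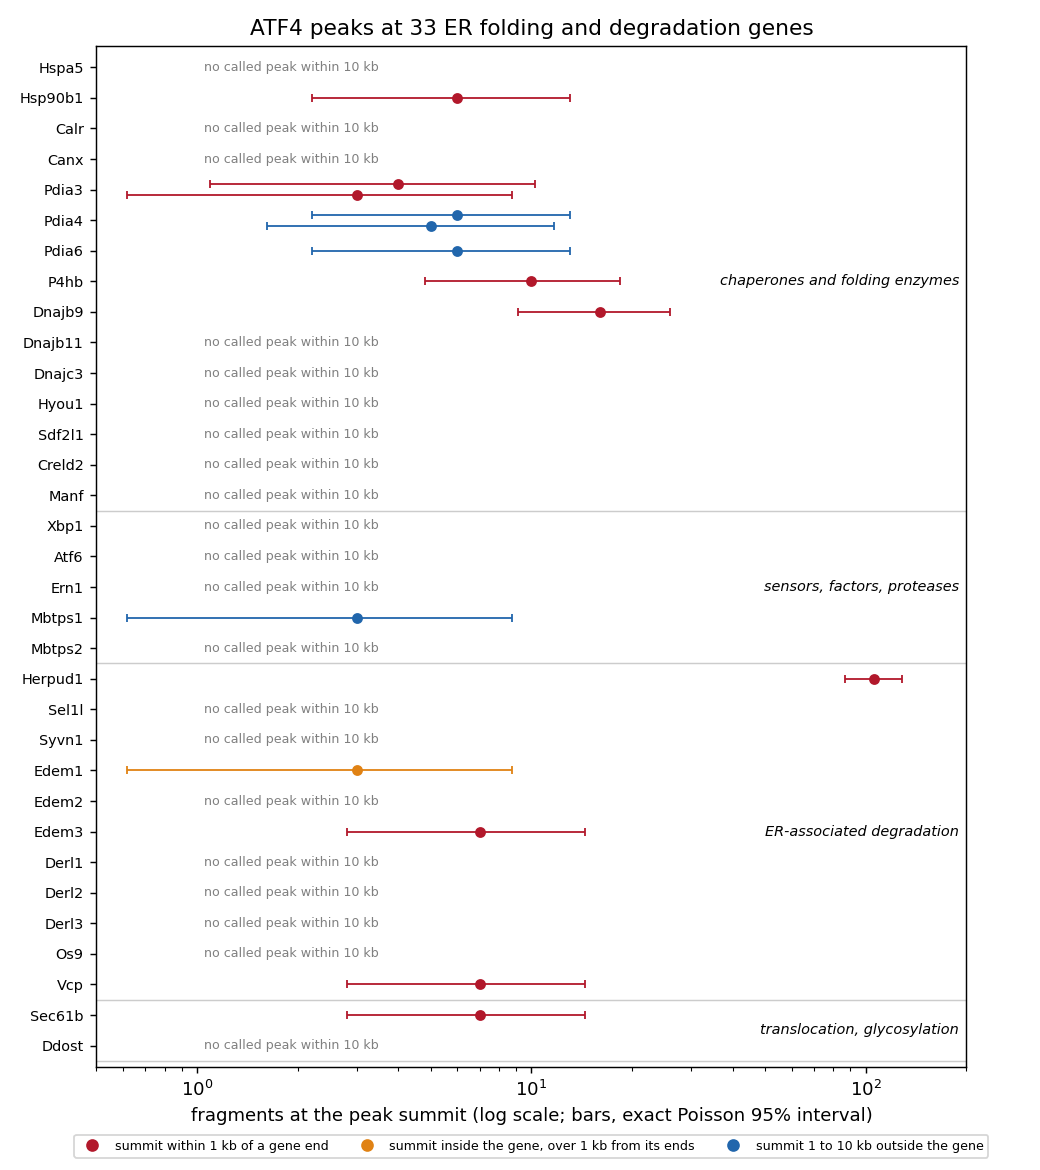
Fragments at the summit of every ATF4 peak inside or within 10 kb of the 33 ER genes (x axis, log scale), 1 line per gene in 4 groups, with points for peaks and bars for exact Poisson 95% intervals. Herpud1 stands alone at 106 fragments, and 12 genes (36.4%) had a called peak in this range, against 24.7% of other protein-coding genes.

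A summit inside the gene and more than 1 kb from both ends was found in 1 member, Edem1 (3.03%), against 10.7% of the other protein-coding genes. Counting all summits between the ends of a gene, there were 3.42 per Mb of member gene (3 summits, exact Poisson 95% interval 0.706 to 10.0) and 3.75 per Mb in other genes. Of the 3, those of P4hb and Pdia3 are also gene-end summits. Median gene length was 17.4 kb in the members and 17.2 kb in the others. With summits inside the gene or within 10 kb of it, 12 members were reached (36.4%), against 24.7% of the other genes, and 8 of the 12 were the gene-end members. When peaks had to reach a -log10 q of 5, 7 members were reached (21.2%), against 6.19%. The median distance from a gene to its nearest summit, taken as 0 for a summit inside, was 34.0 kb for the members and 61.7 kb for the others.

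**Figure D2:**
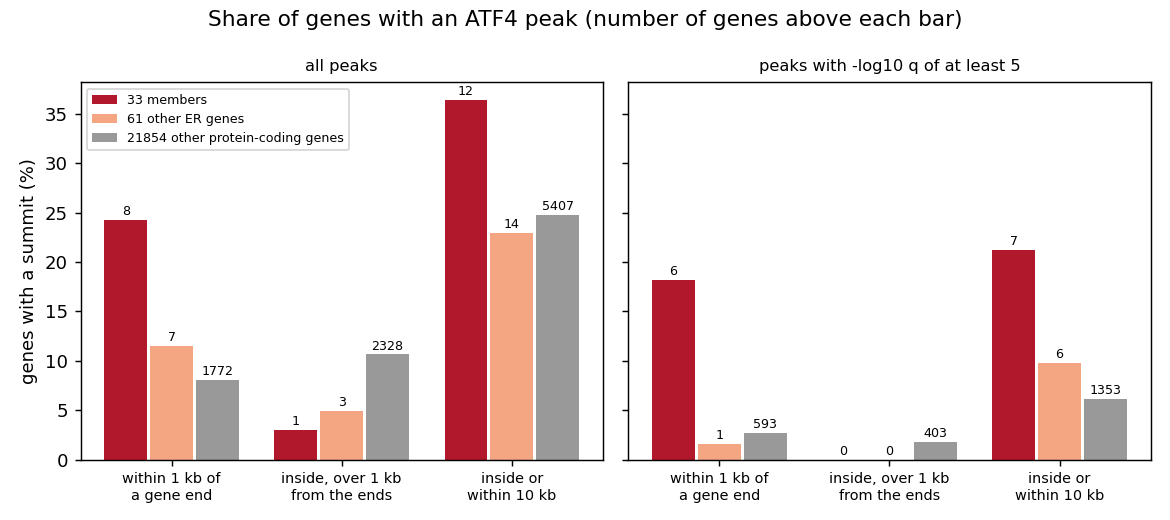
Percent of genes (y axis) with an ATF4 summit under 3 rules of assignment (x axis), for the 33 ER genes, 61 other ER genes and 21854 other protein-coding genes, with all peaks at left and those reaching a -log10 q of 5 at right. The ER genes stand above the other genes at gene ends (24.2% against 8.11%), while inside genes 1 ER gene (3.03%) had one, against 10.7%.

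The 8 members at gene ends all had the summit at the 5′ end of the gene, and none had one at the 3′ end. Among the 1368 other protein-coding genes longer than 2 kb with a gene-end peak and a known strand, 92.0% had a summit at the 5′ end and 8.92% at the 3′ end. Measured from the transcription starts of the promoter table, 8 of the 29 members with an entry (27.6%) had a summit within 1 kb, against 8.17% of the other genes with an entry. Hyou1, Manf, Atf6 and Derl1 had no entry. Along the distance to the nearer gene end there was a gap between members counted and not counted. The farthest summit counted was at Hsp90b1, 555 bp from its end, and the nearest not counted lay 5767 bp from an end of Edem1, inside the gene.

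Herpud1 encodes a ubiquitin-like protein of the ER membrane that serves the ubiquitin ligase complex of ER-associated degradation. Its peak at chr8:94385836-94386909 was enriched 15.4-fold (q = 5.94e-87) and was 1074 bp wide. At the summit 106 fragments were stacked (86.8 to 128), where the peak caller expected 5.93, and this placed the peak 30th of all 7873 by q-value. Only 2 of the 1527 peaks at protein-coding gene ends held more fragments. The summit lay 91 bp before the transcription start. No other member's interval of fragments overlapped that of Herpud1.

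The element TGATGCAA, the strict core of a CARE, lay on the reverse strand of Herpud1 with its first base 112 bp before the start, 14 bp from the summit. Among the 30 member promoters, which cover 250 bases before to 50 bases after the start, Herpud1 was the only one to hold it, and also the only one with the wider core TGATGNAA. Over all 32851 promoters of this length, 0.895% held the strict core and 3.97% the wider one. The second form of the ERSE, ATTGG and CCACG with 1 base between them, began 52 bp before the start of Herpud1, 39 bp from the summit. It occurred in 0.0365% of all promoters. Both elements lay inside the called peak.

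The other 2 degradation genes with a gene-end peak were lower. Edem3, a mannosidase-like protein that marks misfolded glycoproteins, had a peak at chr1:151755138-151755365 enriched 6.72-fold (q = 4.85e-07), on 7 fragments (2.81 to 14.4). Its summit lay 137 bp before the transcription start, and an end of the non-coding gene 2810414N06Rik was 219 bp away. Vcp, the ATPase that pulls proteins out of the ER membrane, had its summit 4 bp before the start. That peak, at chr4:43000476-43000640, also held 7 fragments (2.81 to 14.4), with 6.49-fold enrichment (q = 1.88e-06), and was 165 bp wide. The element TGACGTGG, the core of the unfolded protein response element, began 114 bp before the start of Vcp inside the peak, 103 bp from the summit, and 0.676% of all promoters held it. Of those, 10.4% had a summit within 1 kb of the start, against 6.06% of promoters without it.

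Of the remaining degradation genes, 1 had a called peak inside or within 10 kb. Edem1, a relative of Edem3, had a peak of 3 fragments (0.619 to 8.77) inside the gene, at chr6:108853506-108853671, with 3.68-fold enrichment (q = 0.00372). The other 7 had no summit within 10 kb, which left 4 of the 11 degradation genes (36.4%) with one, against 24.7% of other genes. The nearest for Sel1l, the adaptor of the ligase, lay 13.5 kb outside the gene with 5 fragments (1.62 to 11.7). For Syvn1, the ligase itself, it was 87.8 kb away, for the glycan-binding Os9 56.9 kb, and for Edem2 105 kb. For Derl1, Derl2 and Derl3, which form the channel part of the machinery, the nearest summits were 142, 325 and 58.8 kb away.

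**Figure D3:**
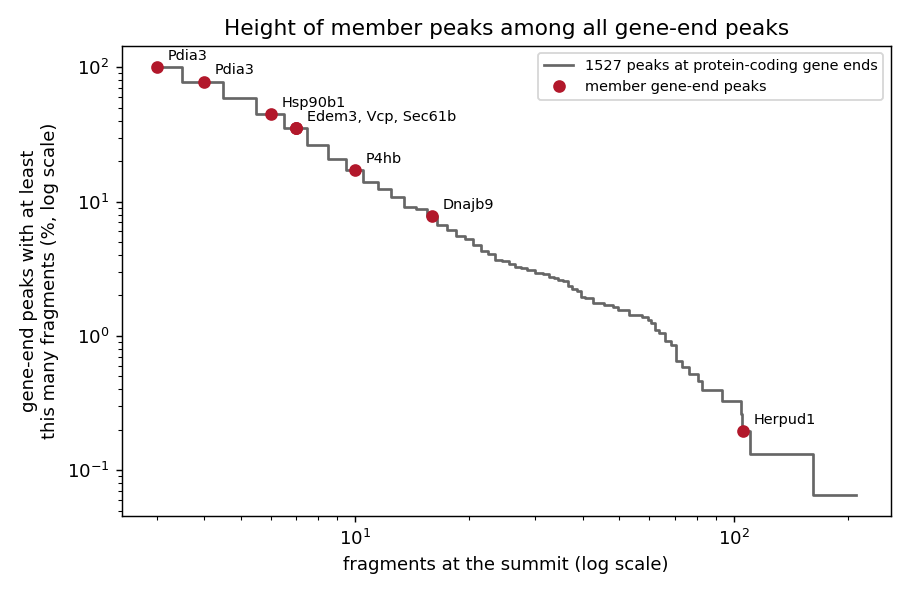
Percent of the 1527 peaks at protein-coding gene ends (y axis, log scale) that hold at least a given number of fragments at the summit (x axis, log scale), with the 9 gene-end peaks of ER genes as red points. Herpud1 lies near the end of the curve with 106 fragments, Dnajb9 follows with 16, and the rest hold 3 to 10.

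Among the folding genes the most fragments were at Dnajb9, a DnaJ co-chaperone of BiP. Its peak at chr12:44209932-44210517 was enriched 10.4-fold (q = 4.12e-14) on 16 fragments (9.15 to 26.0), with the summit 169 bp before the start. An end of the microRNA gene Mir5627 was nearer to that summit, at 76 bp. Fewer fragments were found in 92.2% of the gene-end peaks. P4hb, a protein disulfide isomerase, had 10 fragments (4.80 to 18.4) and 7.01-fold enrichment (q = 4.23e-07) at chr11:120572816-120573429, with the summit inside the gene, 365 bp after the start. The intervals of Dnajb9 and P4hb overlap, so these peaks cannot be ranked at this depth.

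The promoters of Herpud1 and Dnajb9 were found to share the letters TGACGCAA, a variant of the CARE core, which was searched for only after their sequences had been read. It began 130 bp before the start of Herpud1 and 140 bp before that of Dnajb9, on the forward strand of both, 32 and 29 bp from the summits. These 2 were the only members with it, and 161 of all 32851 promoters (0.490%) held it. Of these 161 promoters, 69 (42.9%) had a summit within 1 kb of the start, against 5.90% of the promoters without it. Without the members this was 67 of 159. When peaks had to reach a -log10 q of 5, the shares were 32.9% and 1.94%. For the strict CARE core TGATGCAA the shares were 10.2% and 6.05% over all peaks, and 7.82% and 2.04% at that threshold. For TGATGNAA they were 6.21% and 6.08% over all peaks, and 3.99% and 2.01% at that threshold. The cAMP response element TGACGTCA was in no member promoter and in 1.79% of all promoters. Of the promoters with it 13.9% had a summit within 1 kb of the start, against 5.94% of those without, and 4.25% against 2.05% at that threshold. A match is a description of letters in the window, and promoters of 1 gene can overlap.

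Hsp90b1 and Pdia3 had peaks of few fragments, with another gene near some of them. At Hsp90b1, the ER form of the Hsp90 chaperone, the peak at chr10:86705600-86706128 held 6 fragments (2.20 to 13.1) with 5.80-fold enrichment (q = 1.86e-05). Its summit was 555 bp before the start of Hsp90b1 and 188 bp from an end of Ttc41, the neighbouring gene. Pdia3, the disulfide isomerase that works with calnexin and calreticulin, had 2 peaks. The first, at chr2:121413381-121413641, lay 308 bp before the start with 4 fragments (1.09 to 10.2) and 4.20-fold enrichment (q = 0.00329). The second, at chr2:121414057-121414270, lay 197 bp after it with 3 fragments (0.619 to 8.77) and 3.36-fold enrichment (q = 0.0289), and was 499 bp from an end of Catsper2.

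2 other disulfide isomerases had summits between 1 and 10 kb from the gene. Pdia4 had peaks 7725 and 7299 bp outside its 3′ end, with 5 fragments (1.62 to 11.7) at chr6:47788191-47788502 and 6 fragments (2.20 to 13.1) at chr6:47788826-47789007. The small RNA gene Rny1 had an end 236 and 662 bp from these summits. The peak of Pdia6, at chr12:17256898-17257119, lay 9577 bp before its start with 6 fragments (2.20 to 13.1) and 6.15-fold enrichment (q = 1.88e-06). It is the member nearest to the 10 kb limit on the inner side, and Sel1l is the nearest on the outer side.

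BiP, the lectin chaperones and most co-chaperones had no called peak nearby. Hspa5, which encodes BiP (GRP78), the Hsp70 chaperone of the ER, had no summit inside the gene or within 10 kb. Its nearest summit lay 23.0 kb outside the gene, with 10 fragments and 5.14-fold enrichment, and was 639 bp from an end of Rabepk. For Calr and Canx, the lectin chaperones calreticulin and calnexin, the nearest summits were 26.5 and 34.0 kb away, at 144 bp from an end of Dand5 and 56 bp from an end of Cby3. Hyou1, a large relative of Hsp70, also had no summit within 10 kb. For the co-chaperones Dnajb11 and Dnajc3 the distances were 205 and 118 kb, for Sdf2l1, a partner of the ER DnaJ proteins, 32.6 kb, and for the stress-induced ER proteins Creld2 and Manf 233 and 70.0 kb. In all, 6 of the 15 folding genes (40.0%) had a summit inside or within 10 kb and 9 had none, while 24.7% of the other protein-coding genes had one, so a gene without a peak in this range was the usual case.

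The ERSE is a known element of chaperone genes, and the members were chosen by name from this system. Its higher frequency in their promoters than in all promoters therefore uses no peak and is no result about ATF4. It was found in 9 of the 30 member promoters (30.0%), against 0.119% of all promoters. Members made up 9 of the 39 promoters with an ERSE (23.1%). They were Hspa5, Hsp90b1, Calr, Canx, Pdia6, Dnajc3 and Creld2 of the folding genes and Syvn1 and Derl3 of the degradation genes. The elements began between 44 bp before the start, at Syvn1, and 212 bp before it, at the distal element of Hsp90b1. The second form of the ERSE was found in Herpud1 and in Dnajb11, where it began at base 8 counted from the start. Of these 11 members with either form, 2 had a gene-end peak, Herpud1 and Hsp90b1, and of the 18 members with a promoter entry and neither form, 6 had one, while 8.11% of other protein-coding genes had one. Over all promoters with an ERSE, 4 of 39 (10.3%) had a summit within 1 kb of the start, against 6.08% of those without, and 0 of them had one that reached a -log10 q of 5, against 2.09%. For the second form this was 3 of 12 (25.0%) against 6.08%, and 1 of 12 (8.33%) against 2.09% at that threshold, with Herpud1 among the 12. The distal element of Hsp90b1 lay within the called peak, 343 bp from its summit, and the proximal one, 107 bp before the start, lay outside it.

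**Figure D4:**
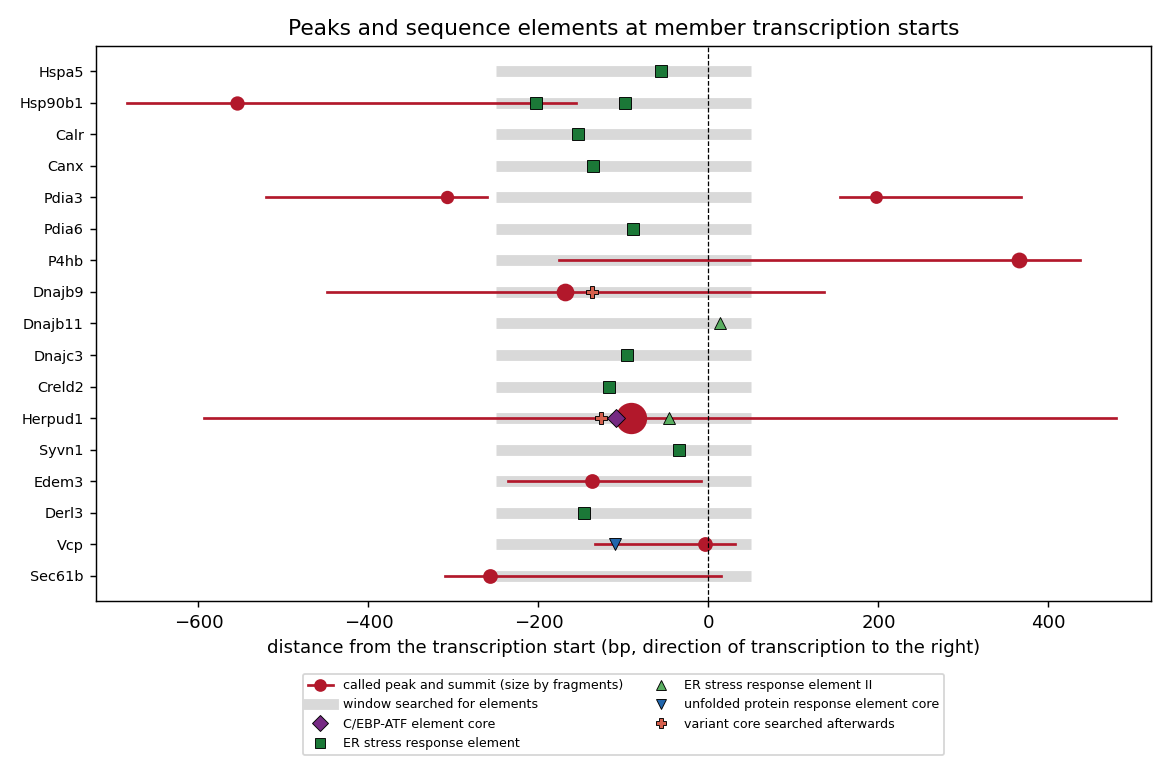
Called peaks (red lines, with summits as points sized by fragments) and matches to the elements searched (symbols) at the members with a gene-end peak or an element, by distance from the transcription start in bp (x axis). The summit of Herpud1 lies 14 bp from its CARE core, and 1 of the 9 genes with an ERSE, Hsp90b1, has a gene-end peak, where 8.11% of other protein-coding genes have one.

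None of the 5 sensor genes had a peak at an end or inside, where 8.11% and 10.7% of other genes had one, and 5 genes are too few to read a difference from. Xbp1, whose mRNA is spliced by IRE1 to give an active factor, had its nearest summit 336 kb away. For Ern1, which encodes IRE1, it was 181 kb and for Atf6 118 kb, and these were the longest members, at 90177 and 164129 bp. Mbtps1 and Mbtps2 encode the Golgi proteases that release ATF6 from the membrane. A peak of 3 fragments (0.619 to 8.77) lay 7653 bp outside Mbtps1, at chr8:119566410-119566624, with 3.68-fold enrichment (q = 0.00372), and for Mbtps2 the nearest was 48.9 kb away. The third sensor gene, Eif2ak3 for PERK, which is no member, had no summit within 10 kb either, with the nearest at 24.2 kb.

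Of the genes of protein entry and glycosylation, Sec61b, a subunit of the channel through which proteins enter the ER, had a peak at chr4:47474351-47474676. It held 7 fragments (2.81 to 14.4), with 6.63-fold enrichment (q = 8.65e-07) and the summit 257 bp before the start. An end of Alg2, a mannosyltransferase of the sugar donor for glycosylation, lay 37 bp from that summit. The peak cannot be given to either gene by position. Ddost, a subunit of the oligosaccharyltransferase, had no summit within 116 kb.

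The 9 gene-end peaks of the members held a median of 7 fragments, and the 1518 other peaks at protein-coding gene ends a median of 5 (middle 50% from 4 to 8). Of the 9, 7 held at least 6 fragments (77.8%), against 44.7% of the others. When peaks had to reach a -log10 q of 5, the order of the medians turned, with 8.5 fragments in 6 member peaks and 10 in 483 others. A protein-coding neighbour also had an end within 1 kb in 3 of the 9 (33.3%) and in 19.5% of the others. Those 3 were the peaks shared with Ttc41, Catsper2 and Alg2.

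A further 61 genes of ER folding, glycosylation, translocation and degradation, written from general knowledge, were set beside the members. Gene-end peaks were found at 7 of them (11.5%), close to the 8.11% of genes outside the member list, and at 1 (1.64%) when they had to reach a -log10 q of 5, below the 2.72% of other genes at that threshold. That gene was Rnf5, a ubiquitin ligase of the ER membrane, whose peak at chr17:34603686-34604297 held 10 fragments (4.80 to 18.4) with 7.78-fold enrichment (q = 2.18e-08). Its summit lay 496 bp from an end of Rnf5 and also within 1 kb of an end of Agpat1. The other 6 held 3 to 5 fragments. Inside or within 10 kb a summit was found at 14 of the 61 (23.0%), against 24.7% of genes outside the member list, and at 6 (9.84%) against 6.19% when peaks had to reach a -log10 q of 5. When 1 peak was taken for each gene, the highest lay at chr3:137865375-137865764, 1968 bp from an end of Dnajb14. A gene could hold further peaks. Dnajb14 encodes a DnaJ co-chaperone of the ER membrane and was named after the value of its peak was seen. That peak held 30 fragments (20.2 to 42.8) with 11.7-fold enrichment (q = 1.69e-23), more fragments than any member peak except that of Herpud1. Among the 49 of these genes with a promoter entry, none held the strict CARE core, which 0.895% of all promoters held. The wider core was in 2 (3.97% of all promoters), TGACGTGG in 3 (0.676%), and an ERSE in 1 (0.119%). These matches are too few to read a difference from.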

How the data were processed

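CUT&Tag peaks of 1 ATF4 library of primary mouse neurons were analysed. An IgG library is labelled, and its data were not used here. The submitters' processing notes name the build mm10 and the tools FastQC, BWA, MACS2 2.1.2 and deepTools, with no parameters or use of IgG in peak calling given in the sources used here. The deposited peak list gives fold enrichment (a ratio to the estimated background) and, as -log10 values, the p-value and the q-value. Its deposited score column is the -log10 q times 10 without its decimals, as tested on all 7873 peaks. No value was normalized further.

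Fragments at a summit were solved from fold = (fragments + 1) / (background + 1) and a Poisson upper tail, the formulas of MACS2, with the -log10 p met within 0.001 in all 7873 peaks. They are reads if the caller took each read by itself. The total number of fragments in the library was not used here. Genes and transcription starts came from the RefSeq tables of GRCm38.p6, the assembly behind mm10, and all 33 members and 61 further ER genes were found, 5 of the latter under a newer symbol. A summit within 1 kb of either end counted as a gene-end peak. Lists were described by counts beside all other protein-coding genes, with no test. Elements were searched on both strands of RefSeq promoters (250 bases before to 50 after the start). The strict CARE core is a subset of the wider one. The steps were tested on simulated data. Members, lists and windows were chosen with earlier results of these data known, and TGACGCAA was added after the promoters were read. All members are named, with neighbours that share a gene-end peak, neighbours at the nearest summit of some members, chosen after their values were seen, and further ER genes with a gene-end peak of at least 6 fragments. Eif2ak3 was named as the third sensor. Alternatives were a -log10 q of at least 5, at least 6 fragments, overlap in place of the summit, windows of 500 bp and 3 kb, transcription starts, peaks not shared with another gene and the nearest gene only. Tables were handled in pandas 2.3.3 under Python 3.11.15, intervals came from scipy 1.17.1 with numpy 2.4.6, and plots from matplotlib 3.10.9.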

Additional observations from a re-analysis of the deposited data

How the results depend on the processing

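The share of ER genes with a summit at a gene end ranged from 18.2% to 27.6% over 7 alternatives, against 24.2% as reported, and lay above the share of other protein-coding genes in each of them (2.71% to 11.3%). Without peaks shared with another protein-coding gene end it was 18.2% against 5.46%, and with at least 6 fragments 21.2% against 3.72%. The share with a summit inside the gene, 3.03% from Edem1 alone, was 0% with a -log10 q of at least 5 and 0% with at least 6 fragments, since the Edem1 peak holds 3 fragments. The gene-end share of the 61 further ER genes, 11.5% against 8.1% of other genes, was 1.64% in both of these settings, against 2.72% and 3.72%, so it turned from above to below the other genes. The median of 7 fragments at member gene ends, above the 5 of other peaks, became 8.5 against 10 with a -log10 q of at least 5, so the order of the medians turned. Summits inside members per Mb, 3.42 against 3.75, became 1.14 against 0.658 in that setting, also with the order turned, from 1 member summit. Peaks of 3 to 7 fragments have intervals that overlap each other, which limits any order among them. No paired analysis was possible because each antibody has 1 library and only the ATF4 peaks were analysed.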
